A study of Homo sapiens with 13 samples.

Results

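The genes described here are 9 factors of nonsense-mediated decay (NMD), namely UPF1, UPF2, UPF3A, UPF3B, SMG1, SMG5, SMG6, SMG8 and SMG9. They were chosen by symbol from 24875 gene symbols in the Silvestrol table and 13121 in the INK128 table. All 9 passed the minimum of 1 RPKM (reads scaled to gene length and library depth) for ribosome footprints (RFs) and 0.3 RPKM for mRNA, as did 10587 genes in all. SMG8 and SMG9 were listed in the Silvestrol table as C17orf71 and C19orf61 and were matched through their RefSeq accessions.

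NMD is a translation-dependent pathway that degrades mRNAs on which a ribosome terminates early, usually upstream of an exon junction complex left behind by splicing. The helicase UPF1 is recruited to the terminating ribosome, UPF2 and the paralogs UPF3A and UPF3B connect it to the exon junction complex, and the kinase SMG1, held in a complex with SMG8 and SMG9, phosphorylates it. Phosphorylated UPF1 binds SMG5 and the endonuclease SMG6, which start the decay of the mRNA. Several mRNAs that encode NMD factors are themselves substrates of the pathway, so a block in translation or in NMD is known to raise them, and this feedback is the question the comparison addresses.

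The cells were MDA-MB-231, an established human line of triple-negative breast carcinoma, grown in RPMI with fetal calf serum. In the first experiment RF libraries were made from untreated cells and from cells given the vehicle DMSO or 25 nM Silvestrol, an inhibitor of the RNA helicase eIF4A, for 1 h or 2 h. The 2 h treatments were done in cells of passage 3 and of passage 4 (n = 2 per treatment), and every other library stood alone, including the 2 mRNA libraries of passage 3 at 2 h. In the second experiment cells of passage 3 were given DMSO or 200 nM INK128, an mTOR kinase inhibitor, for 2 h, and 1 RF library and 1 total RNA library were made per treatment.

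Counted reads ranged from 2648102 (Silvestrol at 2 h, passage 4) to 31124315 in the RF libraries, and were 50147071 with DMSO and 24705180 with Silvestrol in the mRNA libraries. One label field of the passage 3 Silvestrol RF library at 2 h gave 1 h, one field of the DMSO mRNA library called it untreated, and the control mRNA values carried no treatment name. Titles were followed in each case. The line's markers VIM and CD44 were detected in every library of the first experiment, and its RFs of ESR1, PGR and CDH1, which a mesenchymal-like triple-negative line lacks, were at or near 0 throughout.

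The start codons of the 9 genes are shown because initiation is the step at which eIF4A acts. Each line gives 12 bases of the 5′ UTR, the ATG in capitals and 9 coding bases, all exonic, from GENCODE version 44 transcripts lifted to GRCh37. The coordinates are those of the ATG.
UPF1, chr19:18943019-18943021, plus strand: cccggaggcaccATGagcgtggag
UPF2, chr10:12077420-12077422, minus strand: ctgggtcacataATGccagctgag
UPF3A, chr13:115047115-115047117, plus strand: ggagagtgcggcATGcgctcggaa
UPF3B, chrX:118986889-118986891, minus strand: ggggacgtagccATGaaggaagag
SMG1, chr16:18937361-18937363, minus strand: tcggggaaggtaATGagccgcaga
SMG5, chr1:156252469-156252471, minus strand: gacccgggcaccATGagccaaggc
SMG6, chr17:2207012-2207014, minus strand: gcagccgcgaagATGgcggaaggg
SMG8, chr17:57287413-57287415, plus strand: acgctctgcactATGgctggtccc
SMG9, chr19:44254891-44254893, minus strand: cgttaggtaaccATGtctgagtct

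A purine stood 3 bases before the ATG in 9 of 9 genes and in 87.65% of 9115 genes with a matched transcript. A G followed the ATG in 2 of 9, SMG6 and SMG8, and in 54.89% of all genes. The 5′ UTRs ranged from 17 nt (SMG8) to 367 nt (SMG1) with a median of 73 nt, against 135 nt over all genes. UPF2, SMG1, SMG5 and SMG9 each had 1 ATG upstream of the start codon, and 38.74% of all genes had at least 1. The coding sequences were long, with a median of 3051 nt against 1416 nt over all genes. The 3′ UTR had a median of 1363 nt, against 1383 nt, and none of the 9 transcripts had an exon junction more than 50 nt past the stop codon, which 0.373% of all genes did. Only 1 transcript per gene, of the protein-coding type, was used. Isoforms annotated as NMD substrates therefore could not enter this count.

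Footprint levels per length differed widely among the factors in control cells. Over the 4 control libraries (untreated, DMSO at 1 h, DMSO at 2 h in passages 3 and 4) UPF1 was at 92.8 ± 13.5 RF RPKM (SD, n = 4), above 82.2% of genes, and SMG9 at 67.3 ± 6.74. UPF3B followed at 25.6 ± 3.13, SMG5 at 19.5 ± 1.64, SMG6 at 18.4 ± 0.660, SMG8 at 16.1 ± 1.01, UPF2 at 14.3 ± 1.32 and SMG1 at 7.00 ± 0.180. The ranges of SMG5 and SMG6 overlapped, as did those of SMG8 and UPF2, and the other neighbours in this order did not overlap. Reads of UPF3A are given below on their own scale.

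RF RPKM per mRNA RPKM, the translational efficiency (TE), also spread widely with DMSO in passage 3. UPF3B had a TE of 7.30, higher than 94.5% of genes, and UPF2 a TE of 2.87. UPF1 at 2.18 and SMG9 at 2.10 lay close to the median over all genes of 1.83, and SMG8 (1.52), SMG6 (1.38) and SMG1 (0.943) lay below it. SMG5 had the lowest TE of the 8 genes with RPKM values, 0.356, and 7.59% of all genes had a lower one. Its mRNA at 54.2 RPKM was the most abundant of these 8.

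**Figure D1:**
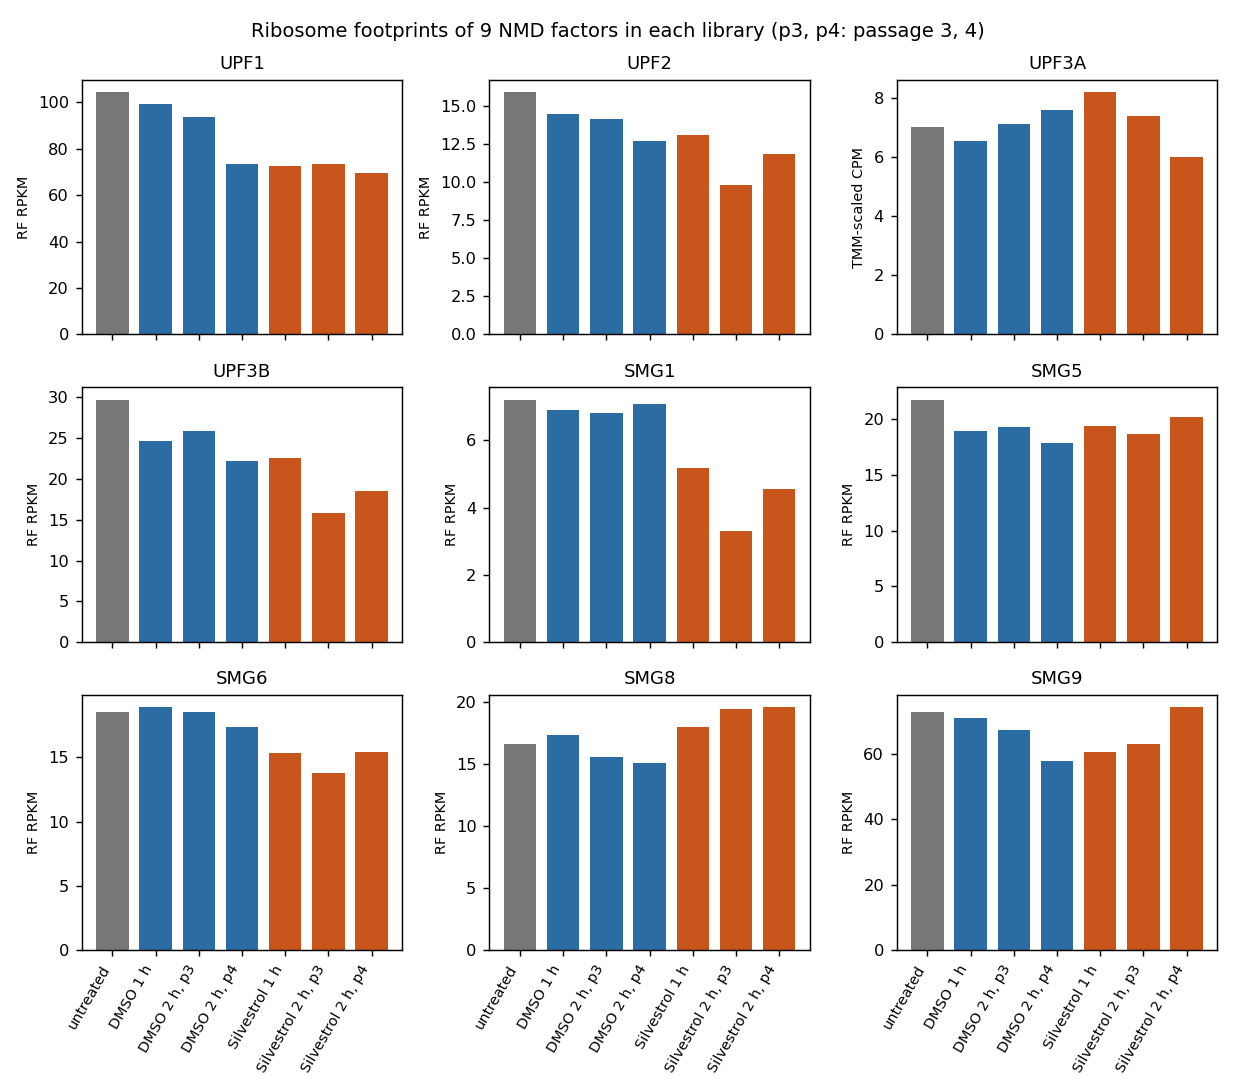
RF level of each NMD factor in the 7 RF libraries of the Silvestrol experiment (bars are single libraries, grey untreated, blue DMSO, orange Silvestrol, y axis in RPKM from 0, or in TMM-scaled CPM, read counts scaled to library depth, for UPF3A). The 3 Silvestrol bars of SMG1 sit between 3.30 and 5.18 RPKM, below all 4 control bars, and those of SMG8 sit between 18.0 and 19.5 RPKM, above them.

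SMG1, the kinase that phosphorylates UPF1, had the largest difference in footprints. Its RF level was 7.21 RPKM in untreated cells, 6.90 with DMSO at 1 h and 6.81 and 7.08 with DMSO at 2 h in passages 3 and 4. With Silvestrol it was 5.18 RPKM at 1 h and 3.30 and 4.57 at 2 h. The 3 Silvestrol values were below all 4 controls, and the 1 h value lay between the controls and the 2 h values. At 2 h the means were 6.94 ± 0.189 and 3.93 ± 0.894 RPKM (SD, n = 2 each). In edgeR, whose log2 differences here and below are on TMM-scaled counts and not on RPKM, the difference was −0.65 ± 0.20 (SE) with an adjusted p of 0.094. With the passage as a block the log2 change was −0.68 ± 0.13 and the adjusted p 7.1e-07, and SMG1 passed the threshold of 0.05. In this blocked RF fit p-values rest mostly on a spread pooled over all genes, as little remains to estimate each gene's own. SMG1 has near-identical copies elsewhere in the genome, so reads of shared stretches were set aside in counting and its level is uncertain.

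SMG8, which binds SMG1 together with SMG9, differed in the other direction. Its RF level was 16.6 RPKM in untreated cells, 17.3 with DMSO at 1 h and 15.5 and 15.0 with DMSO at 2 h. With Silvestrol it was 18.0 RPKM at 1 h and 19.4 and 19.5 at 2 h. All 3 Silvestrol values were above the 4 controls. The log2 difference at 2 h was 0.47 ± 0.16 (SE) with an edgeR adjusted p of 0.115, and 0.47 ± 0.13 with an adjusted p of 0.00089 under the passage block. SMG9 showed no such order, at 72.9, 71.1, 67.4 and 57.7 RPKM in the controls, 60.7 with Silvestrol at 1 h and 63.0 and 74.3 at 2 h, and its adjusted p was 0.347, or 0.064 with the block.

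UPF3B, one of the 2 paralogs that bind the exon junction complex, was lower at 2 h. It was at 29.7 RPKM in untreated cells, 24.6 with DMSO at 1 h, and 25.9 and 22.3 with DMSO at 2 h. With Silvestrol it was 22.6 RPKM at 1 h and 15.8 and 18.6 at 2 h. The 2 h values were below every control, and the 1 h value was within their range. The log2 difference at 2 h was −0.38 ± 0.19 (SE) with an edgeR adjusted p of 0.247, and −0.41 ± 0.15 with an adjusted p of 0.0151 under the block. When the 1 h libraries were added as another pair, the blocked value was −0.20 with an adjusted p of 0.241, and UPF3B no longer passed. Without 1 library at a time the unblocked value ran from −0.23 (DMSO of passage 3 left out) to −0.51 (DMSO of passage 4 left out).

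UPF1, the central helicase, and UPF2, its partner, did not pass in either fit. UPF1 was at 104.6, 99.2, 93.8 and 73.6 RPKM in the 4 controls and at 72.7, 73.5 and 69.7 RPKM in the Silvestrol libraries, so the passage 4 DMSO value nearly met the Silvestrol values, and its log2 difference of −0.10 ± 0.18 had an adjusted p of 0.739. It turned to 0.12 without the passage 3 DMSO library and was −0.30 without that of passage 4. UPF2 was at 15.9, 14.5, 14.2 and 12.7 RPKM in the controls, 13.1 with Silvestrol at 1 h, and 9.79 and 11.8 at 2 h. The 1 h value lay within the range of the controls and the 2 h values below it. Its log2 difference of −0.20 ± 0.18 had an adjusted p of 0.488, or 0.142 with the block, and it ran from −0.083 to −0.31 when the passage 3 or the passage 4 DMSO library was left out.

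The decay effectors SMG5 and SMG6 also did not pass. SMG6 was at 18.6, 18.9, 18.6 and 17.4 RPKM in the controls and at 15.3, 13.8 and 15.4 RPKM in the Silvestrol libraries, below all 4 controls on this scale, and its log2 difference of −0.18 ± 0.14 had an adjusted p of 0.439 and ran from −0.095 to −0.26 when the passage 3 or the passage 4 DMSO library was left out. On TMM-scaled CPM the SMG6 groups overlapped, with Silvestrol at up to 102.4 and controls from 99.8. SMG5 was at 21.8, 19.0, 19.3 and 17.9 RPKM in the controls and 19.4, 18.7 and 20.2 RPKM with Silvestrol, with overlapping groups and an adjusted p of 0.465.

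UPF3A had the fewest reads. The Silvestrol table holds 2 entries for it, and the counted length of each (reads over RPKM) showed that the entries were in the other order in the passage 4 and the Silvestrol mRNA columns, so their reads were summed. The sums were 174, 197, 179 and 47 reads in the controls and 156, 82 and 15 reads with Silvestrol, or 6.559 to 7.606 and 6.002 to 8.205 CPM (reads scaled to library depth) after TMM scaling (the trimmed mean of M values). The groups overlapped, and the edgeR log2 difference was −0.09 (adjusted p 0.963). One library held only 15 reads, and what size of change could be found at this depth was not tested.

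Without the block 0 of the 9 factors passed in edgeR, where 9.63% of 10587 genes did. SMG1 and SMG8 had an unadjusted p under 0.05, 2 of the 9 beside 31.0% of all genes, and DESeq2 called 0 of the 9, where it called 16.1% of the 9766 genes to which it gave an adjusted p. With the block 3 of 9 passed, SMG1 and UPF3B lower and SMG8 higher, where 52.9% of all genes did. Of the 8 factors with RPKM values, 3 (UPF1, SMG1, SMG6) had all Silvestrol values below all controls, as did 32.8% of genes, and 1 (SMG8) had them above, as did 10.2%. On TMM-scaled CPM, where the overall shift is scaled out, SMG1 alone was below all controls, as were 23.3% of genes, and SMG8 alone above, as were 18.6%. The median log2 difference of the 9 was −0.10, against −0.02 over all genes.

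After scaling to the median of all genes, which shifted by −0.18 on the RPKM scale at 1 h, differences at 1 h were small. They ran from −0.26 (UPF1) and −0.23 (SMG1) to 0.24 (SMG8) and, for UPF3A on its own scale, 0.31. Each rests on 1 library per treatment, with no replicate check.

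**Figure D2:**
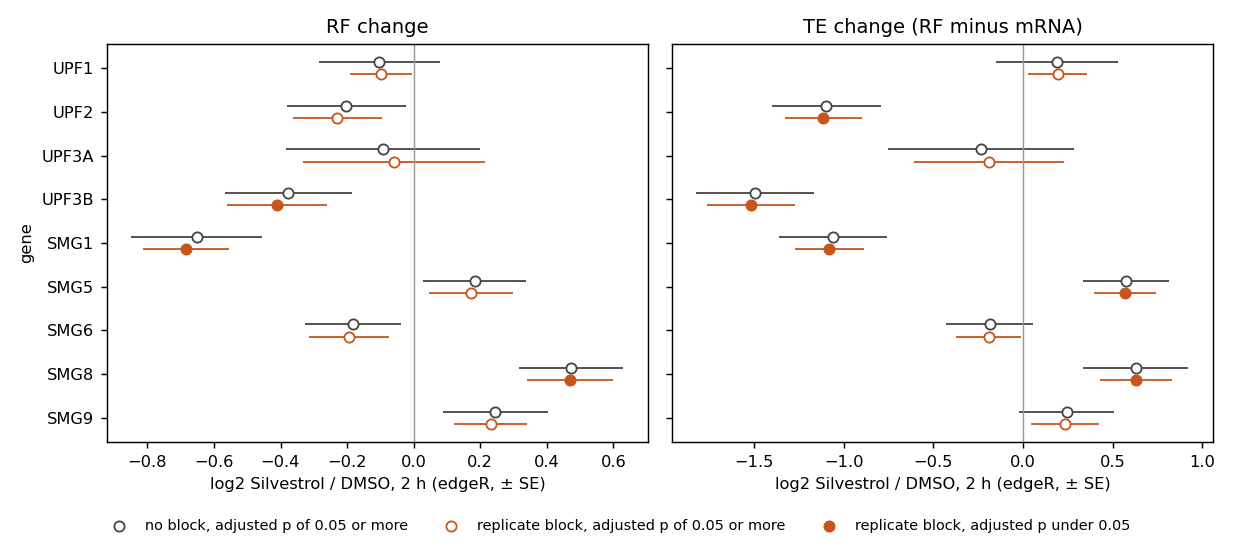
log2 difference between Silvestrol and DMSO at 2 h for RFs (left) and TE (right), from edgeR without (dark) and with (orange) the passage as a block, with bars of 1 SE. Filled points passed an adjusted p of 0.05: SMG1, UPF3B and SMG8 for RFs, and those 3 with UPF2 and SMG5 for TE, all with the block.

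The mRNAs of UPF2 and UPF3B were more abundant with Silvestrol. UPF3B mRNA was at 3.55 RPKM with DMSO and 8.89 with Silvestrol, 2.503-fold higher, from 502 and 609 reads, and its log2 change of 1.32 (95% counting interval 1.15 to 1.49) was above that of 98.8% of genes. UPF2 mRNA was at 4.95 and 10.0 RPKM, 2.02-fold higher, from 1619 and 1681 reads, with a log2 change of 1.02 (0.92 to 1.11) above that of 95.6% of genes. Each value comes from 1 library, the intervals cover counting error only, and there is no test across cultures.

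SMG1 mRNA was next, at 7.22 and 10.0 RPKM (log2 0.47). SMG6 (13.5 and 14.7 RPKM), SMG9 (32.1 and 35.0) and SMG8 (10.2 and 10.0) were nearly level. UPF1 (42.9 and 38.2 RPKM) and SMG5 (54.2 and 43.9) were lower with Silvestrol, with log2 values of −0.17 and −0.30. UPF3A had 228 and 141 reads, a log2 change of 0.18 after TMM scaling with an interval of −0.12 to 0.49. Set against the median change of all genes, 0.04, only UPF3B of the 9 was at least 2-fold higher, as were 3.9% of genes, and UPF2 lay just inside that limit at 0.97.

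The mRNA change moved with the base composition of the genes. Across quintiles of coding GC content, of 1822 or 1823 genes each, the median log2 mRNA change was 0.58 in the quintile of lowest GC and −0.35 in that of highest GC. UPF2 (41.2% GC) and UPF3B (42.0%) were in the lowest quintile, SMG1 (44.3%) and SMG8 (48.6%) in the next, and UPF1 (60.6%) in the highest. Within its own quintile UPF3B was 0.74 above the median on the log2 scale, higher than 96.4% of those genes, and UPF2 was 0.44 above it, higher than 86.2%. SMG9 was 0.42 above the median of its quintile, higher than 82.4%, and SMG8 was at −0.31, higher than 23.5%. UPF1, SMG1, SMG5 and SMG6 lay between −0.01 and 0.20. With 1 mRNA library per treatment, a composition effect of the libraries and one of the treatment cannot be told apart.

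**Figure D3:**
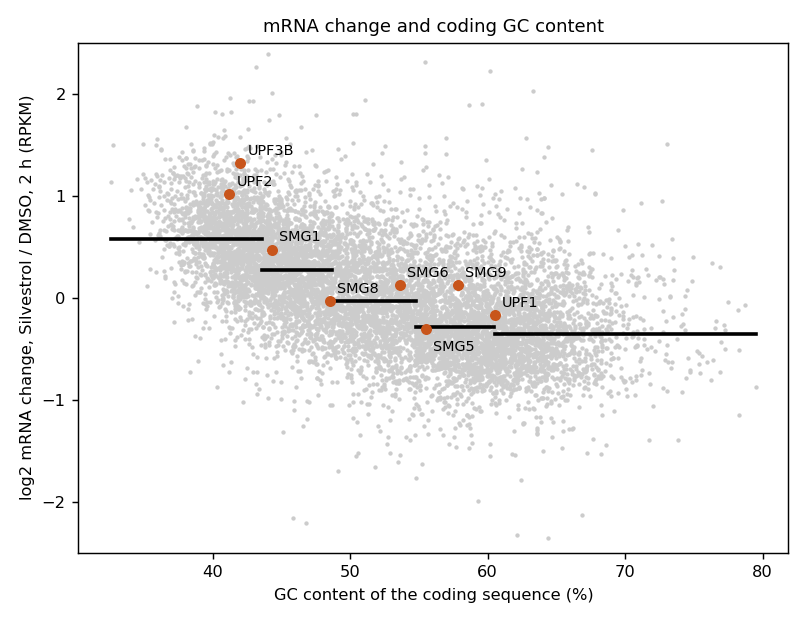
log2 mRNA change at 2 h against the GC content of the coding sequence for all genes with a matched transcript (grey), with the median of each GC quintile (black lines) and the NMD factors with RPKM values (orange). The quintile medians run from 0.58 down to −0.35, and UPF3B and UPF2 lie above the line of the lowest quintile at 1.32 and 1.02.

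RFs of UPF2 and UPF3B did not follow their mRNAs, so their TE was lower. In passage 3 the TE of UPF3B was 7.30 with DMSO and 1.77 with Silvestrol, a log2 change of −2.04 of which the mRNA term made up 1.32. The TE of UPF2 was 2.87 and 0.978 (log2 −1.55), and that of SMG1 0.943 and 0.329 (log2 −1.52), for which the RF term of −1.04 was the larger. SMG8 (1.52 and 1.94) and SMG5 (0.356 and 0.426) had higher TE with Silvestrol, and UPF1 (2.18 and 1.92), SMG6 (1.38 and 0.937) and SMG9 (2.10 and 1.798) lower. The median log2 change over all genes on this scale was −0.29. Relative to it UPF1 (0.11) and SMG9 (0.07) were slightly higher, and with the RFs of passage 4 they were 0.34 and 0.48 above the median of that passage. Relative to the median of their own quintile of coding GC, UPF1 and SMG9 were at −0.37 and −0.34 in passage 3. With the RFs of passage 4 they were at −0.26 and 0.07.

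A z-score modelled on that of the study, this log2 change standardised over the 10586 genes that passed the minimum used here, with a threshold of 1.5 in size, was −1.73 for UPF3B in passage 3. UPF3B was the 1 factor below −1.5, as were 6.47% of genes, and 0 of 9 were above 1.5, as were 4.65%. UPF2 at −1.24 and SMG1 at −1.21 were inside the threshold. With the RFs of passage 4 over the same mRNA libraries the scores were −1.34 for UPF3B, −0.86 for UPF2 and −0.84 for SMG1, and none was past it. Centred within quintiles of coding GC, the passage 3 scores were −1.23 for UPF3B, −0.70 for UPF2 and −1.02 for SMG1, again with none past it.

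In the edgeR model of both assays 0 of the 9 passed without the block, and 0.0189% of genes did. The log2 TE change was −1.49 ± 0.33 (SE) for UPF3B (adjusted p 0.098), −1.10 ± 0.30 for UPF2 (0.123) and −1.06 ± 0.30 for SMG1 (0.127). These 3 were under an unadjusted p of 0.05, as were 24.4% of genes, and DESeq2 called 1 of the 9, UPF3B, with an adjusted p of 0.0426, where it called 11.1% of the 8124 genes with an adjusted p, UPF3A not among them.

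With the passage block 5 of 9 passed, where 43.3% of genes did. UPF3B (−1.52 ± 0.24, adjusted p 0.000996), SMG1 (−1.08 ± 0.19, 0.00155) and UPF2 (−1.11 ± 0.22, 0.00259) fell, and SMG8 (0.63 ± 0.20, 0.0284) and SMG5 (0.57 ± 0.17, 0.0226) rose. Both fits share the single mRNA library per treatment, so the spread of mRNA between cultures does not enter them. With a correction for coding GC in the same blocked fit, UPF3B was at −1.02 (adjusted p 0.00472), SMG1 at −0.72 (0.00734), UPF2 at −0.57 (0.0496) and SMG8 at 0.76 (0.00778), and SMG5, at 0.34 with an adjusted p of 0.121, no longer passed.

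**Figure D4:**
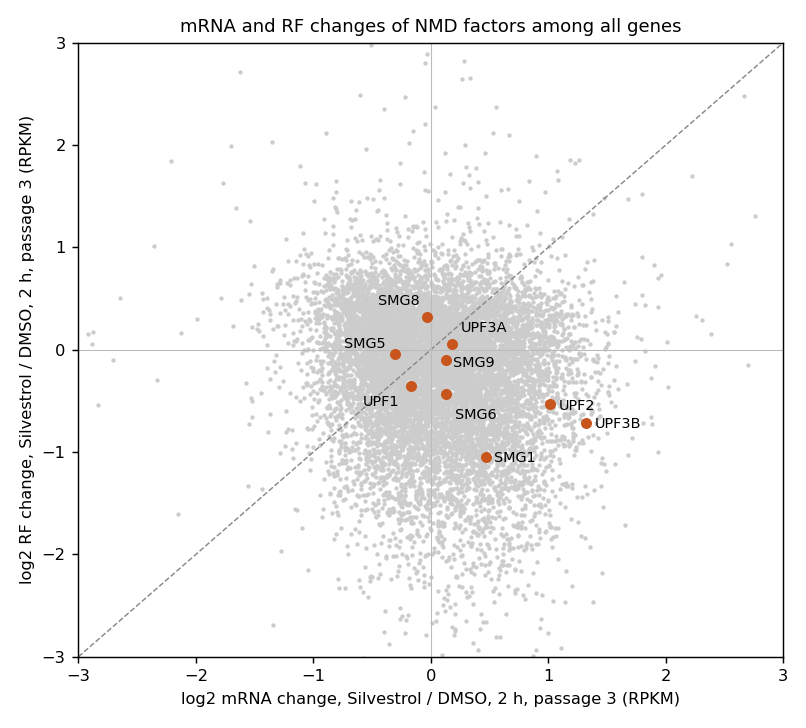
log2 RF change against log2 mRNA change at 2 h in passage 3 (RPKM, 1 library per treatment and assay) for all genes (grey) and the NMD factors (orange, UPF3A on TMM-scaled counts). The dashed line marks equal change, and UPF3B, UPF2 and SMG1 lie farthest below it, with TE changes of −2.04, −1.55 and −1.52.

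Other genes of the pathway were counted in lists chosen with earlier results of these data known. Of 6 exon junction complex genes 1 was lower and 1 higher in RFs without the block, where 9.63% of all genes passed in either direction, and the block, with 52.9% of all genes passing, gave the same counts. These were EIF4A3, its RNA-clamping helicase, at −0.84 ± 0.14 (adjusted p 0.0316) and CASC3 at 0.83 ± 0.14 (0.0337). Of 4 genes for release factors and PABPC1 0 passed in either fit.

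Of 7 tested decapping and decay genes 1 was lower without the block, where 9.63% of all genes passed, namely DDX6, a helicase of P-bodies, at −1.44 ± 0.23 (adjusted p 0.0307). With the block, under which 52.9% of all genes passed, 1 was lower and 3 were higher, DCP1A (0.51), DCP2 (0.47) and the exonuclease XRN1 (0.55). Of 6 other cofactors 1 was higher without the block, again beside 9.63% of all genes, NBAS at 0.62 ± 0.12 (0.0436). With the block 2 of these 6 were lower and 3 higher, the lower ones including DHX34, a helicase, at −1.02 (1.9e-09).

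Of 14 known endogenous NMD targets 10 were tested, 1 was lower (TRA2B, −0.63, adjusted p 0.0436, or 0.0569 with the GC offset) and 1 higher (ATF3, a stress-induced transcription factor, 1.16, 0.0499). These 2 of 10 stand beside 9.63% of all genes. With the block 3 were lower and 3 higher, 6 of 10 beside 52.9% of all genes. DDIT3 and UPP1 were then also lower, at −1.09 (3.8e-07) and −1.04 (4.1e-13), and GADD45B and TBL2 also higher, at 0.87 (1.3e-13) and 0.50 (0.00085). The snoRNA host transcripts GAS5, ZFAS1, SNHG1 and SNHG12 were not among the 10. The median log2 mRNA change of these 10 was 0.73, against 0.04 over all genes, and 4 of 10 were at least 2-fold above that median, as were 3.9% of all genes. These were ATF3 at 1.93, GADD45A at 1.88, DDIT3 at 1.33 and SRSF3 at 1.08, whereas TBL2 at −0.48 and UPP1 at −0.25 were lower with Silvestrol. ATF3 and DDIT3 are also induced by cell stress, and a rise from stress and one from less decay cannot be told apart in these libraries. Coding GC content was not taken into account for the mRNA changes of this list.

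The 5 genes with RF profiles most like the mean profile of the factors over the 7 RF libraries, each with a Pearson r of 0.99 among 10493 genes, were ZBTB10, C14orf106, RGNEF, KIAA0528 and SCLT1. The profile was highest in untreated cells and lowest with Silvestrol at 2 h in passage 3. It did not stand for every factor. SMG8 had an r of −0.62 with it, SMG9 of 0.41 and SMG5 of 0.50. UPF1, UPF2, UPF3B, SMG1 and SMG6, themselves part of that mean, had an r of 0.87 to 0.99.

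With INK128 the footprints of most factors were close to those with DMSO. The RF level was 26.6 FPKM (fragments scaled to gene length and library depth) with DMSO and 27.8 with INK128 for UPF1, 4.69 and 4.89 for UPF2, 6.64 and 6.86 for UPF3A, and 6.73 and 6.79 for UPF3B. It was 2.54 and 3.16 FPKM for SMG1, 6.54 and 8.37 for SMG5, 5.82 and 6.34 for SMG6, 7.62 and 7.79 for SMG8, and 18.4 and 21.2 for SMG9. All 9 RF values were higher with INK128, by 0.01 (UPF3B) to 0.36 (SMG5) on the log2 scale, but the median over all genes was also above 0, at 0.01. The changes of SMG5, SMG1 and SMG9 were above those of 92.4%, 90.6% and 82.4% of genes. The other factors lay above 48.3% (UPF3B) to 71.2% (SMG6) of genes. There was 1 library per assay and treatment and no read counts, so depth is unknown and no test was possible.

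Total RNA FPKM were lower with INK128 for nearly every gene, with a median log2 change of −1.17, and are therefore given relative to it. UPF3B lay 0.30 above that median (0.1999 and 0.110 FPKM), SMG9 0.22 above (1.21 and 0.627) and SMG5 0.30 below (1.83 and 0.663). SMG1 (0.531 and 0.236), SMG6 (0.722 and 0.328), SMG8 (0.448 and 0.215) and UPF1 (2.10 and 0.898) lay from 0.06 below it (UPF1) to 0.11 above it (SMG8). UPF2 (0.236 and 0.0951) and UPF3A (0.265 and 0.104) lay 0.14 and 0.19 below.

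UPF2, UPF3A and UPF3B were under the minimum mean of 0.3 FPKM of total RNA, and 6 of the 9 factors passed it. Among those 6 none had a TE score past 1.5 in size, where 5.58% of 7102 genes were below −1.5 and 1.75% above 1.5. SMG5 had the highest score, 1.37, above 97.5% of genes, and passed 1.5 with a pseudocount of 0.5 (1.51) or 0.1 (1.53) and with the median and MAD (median absolute deviation) as scale (2.17). SMG1 was at 0.71, or 0.15 with a pseudocount of 0.5. Without a minimum, UPF3B had a score of −0.45, UPF2 of 0.38 and UPF3A of 0.43.

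**Figure D5:**
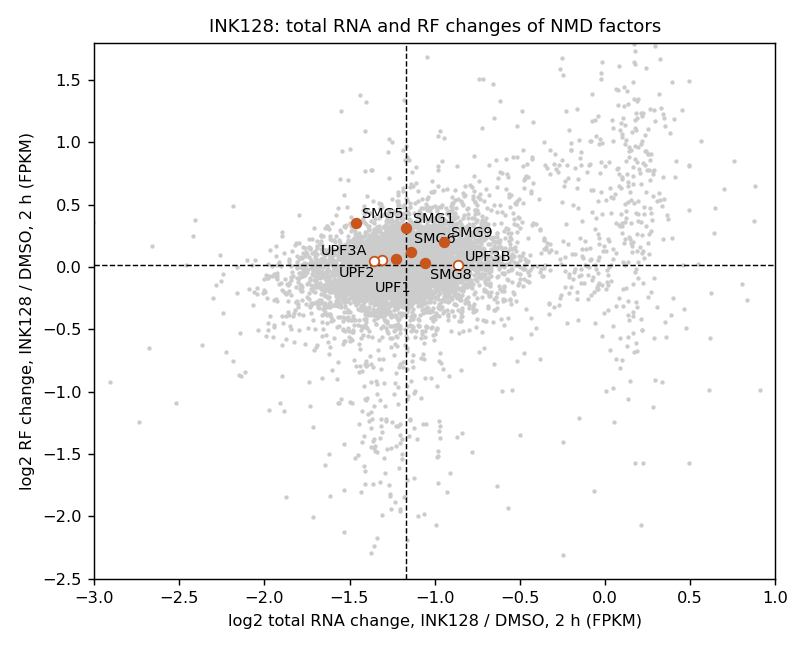
log2 RF change against log2 total RNA change with INK128 at 2 h (FPKM, 1 library each) for genes above the minimum (grey) and the 9 NMD factors (orange, open where total RNA was under the minimum). Dashed lines mark the medians over all genes, −1.17 and 0.01, and the factors lie between 0.01 and 0.36 on the RF axis.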

How the data were processed

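RF, mRNA and total RNA libraries of the MDA-MB-231 line were taken from 2 deposited tables. For Silvestrol the authors aligned reads to the human genome (hg19) and KnownGene transcripts with Bowtie, counted unique alignments, and deposited a read count and an RPKM value per gene and library. RPKM left out non-unique and overlapping positions. For INK128 the authors deposited FPKM values, made with a program that is not given in the sources used here. Columns of the authors' own TE, log2 change and score were not used, and 0 columns of sample values stayed unmapped. Repeated lines were dropped, and of symbols with several entries the one with the highest mean RF RPKM was kept, except UPF3A (reads summed).

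Differences in RF counts at 2 h were tested by edgeR 4.0.16 (R 4.3.3, TMM, glmQLFit, glmQLFTest, 2 libraries per treatment), and TE as the interaction of assay and treatment. Benjamini-Hochberg adjustment ran over all 10587 genes, with a threshold of 0.05. Alternatives were DESeq2 1.42.0, other scalings and filters, pseudocounts of 0.5 and 0.1, a passage block, a GC offset and the removal of each library. Single-library changes are log2 ratios without a pseudocount. Transcripts were matched for 86.1% of genes. On counts simulated for 10587 genes, of which 200 changed by 2 in log2, 197 were called in RFs along with 12 that had not changed. For TE these counts were 190 and 10. The largest edgeR log2 changes of a factor without the block were −0.65 in RFs (SMG1) and −1.49 in TE (UPF3B). Changes smaller than 2 were not simulated, so these counts do not show whether changes of that size could be found.

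The labels give passages 3 and 4 for both treatments, and the differences between passages were correlated across treatments (r = 0.749, 10587 genes), so replicate numbers pair the samples. The labels do not say that cultures within a passage were separate, so p-values measure at most the spread between these libraries. In the 2 h RF fit with the block, little remains to estimate each gene's own spread. Its p-values, the very small ones included, rest mostly on a spread pooled over all genes. The members and lists were chosen with earlier results of these data known. A gene of the list of other cofactors is not reported here. The text names all members, and those list genes past the threshold in either RF fit with a log2 change of at least 1 in size, at most 4 a list. EIF4A3, CASC3, NBAS, TRA2B, DCP1A, DCP2, XRN1, GADD45A, GADD45B, SRSF3, TBL2 and the targets and PABPC1 with INK128 were named after their values were seen. Figures and ratios were made in Python 3.11.15 (numpy 2.4.6, pandas 2.3.3).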

Additional observations from a re-analysis of the deposited data

Results flagged for a closer look

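In 2 factors the RF difference at 1 h had the opposite sign to that in both passages at 2 h, each taken relative to the median of all genes. For UPF3B it was 0.0615 at 1 h and −0.54 and −0.11 on the log2 scale at 2 h. For SMG9 it was −0.0434 at 1 h and 0.08 and 0.51 at 2 h. The difference between times was not tested, since each time and passage has 1 library per treatment, and both 1 h values are small.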

How the results depend on the processing

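Without the passage block, 0 of the 9 factors passed for RFs under RLE scaling, DESeq2, both filters, the counted length offset, the GC offset and the removal of each library. Over all genes the RF fit called 795 lower and 225 higher, DESeq2 570 higher, and leaving out 1 library gave 0 to 929 lower and 0 to 284 higher, with 0 in both directions when either Silvestrol library was left out and that arm held 1 library. With the replicate block the RF fit called 2 factors lower and 1 higher (2970 and 2630 genes), with the 1 h libraries as another pair 1 and 1 (2589 and 2621 genes), and with the block and the GC offset 2 and 1 (2611 and 2369 genes). The sign of UPF3A, which did not pass, turned to 0.12 with the extra pair and to 0.071 with its highest entry, and ranged from −0.28 to 0.0030 when 1 library was left out. UPF1, SMG5 and SMG9, which did not pass, ranged from −0.30 to 0.12, 0.095 to 0.28 and 0.11 to 0.40.

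For TE, 2 genes were called lower and 0 higher, and RLE scaling, a minimum of 5 RPKM and the GC offset called 0 lower. DESeq2 called 526 lower and 373 higher, 1 factor among them. Leaving out 1 RF library gave 0 to 773 lower and 0 to 504 higher, with 0 factors. The replicate block called 3 factors lower and 2 higher (2280 and 2308 genes), and with the GC offset 3 and 1 (1891 and 1921 genes). TE signs of factors that did not pass turned for UPF1 (−0.24) and SMG9 (−0.12) with the GC offset and with both (−0.24 and −0.13), for UPF3A with its highest entry (1.24), and for UPF1, which ranged from −0.038 to 0.40 when 1 library was left out. The adjusted p of UPF3B ran from 0.0426 to 0.361 over the fits without a block, the removal of 1 library included. Among the factors the block changed no other call. For TE 0 genes of the other lists passed without the block. With it, 4 of 10 tested endogenous NMD targets were lower and 1 higher. Of 6 exon junction complex genes 1 was lower and 1 higher, and of 7 decapping and decay genes 1 and 2. Of 6 other cofactors 0 were lower and 3 higher, and of 4 genes for release factors and PABPC1 0 passed. Of all genes 43.3% passed with the block.

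The 1 factor with a score below −1.5, UPF3B, became 0 with the RFs of passage 4 and 0 when TE changes were centred within GC quintiles (−1.23), and stayed 1 with the other filters, pseudocount, TMM counts and MAD. For INK128 the count above 1.5 became 1, SMG5, with pseudocounts of 0.5 (1.51) and 0.1 (1.53) and with the MAD (2.17). A minimum of 5 FPKM left no factor. At 1 h and for mRNA, TMM-scaled counts moved 8 and 4 of 9 values by more than their counting error. The GC alternatives and the UPF3A entry were chosen after seeing the data. Depth limits UPF3A most, with 15 reads in the shallowest library.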

Other observations

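Under INK128, 6 of the 14 endogenous NMD targets had TE scores below −1.5, and 0 were above 1.5, where 5.58% and 1.75% of 7102 genes were. They were the snoRNA host transcripts GAS5 (−4.39), SNHG12 (−3.13), SNHG1 (−2.60) and ZFAS1 (−2.32), and the stress-induced genes DDIT3 (−2.24) and ATF3 (−2.03). In the 4 host transcripts the RF term was lower, at −1.28 to −1.77 relative to the median of all genes, and total RNA lay from −0.21 (ZFAS1) to 0.53 (GAS5) on that scale. On the same scale total RNA of ATF3 and DDIT3 lay 1.28 and 0.87 above the median, which itself was −1.17, and their RF term was 0.18 and −0.34. Without that scaling their total RNA changed by 0.11 and −0.30. PABPC1, the poly(A)-binding protein, had a score of −3.92. The paper reports that mRNAs sensitive to INK128 mostly carried sequences it calls TOP or TOP-like. Whether these scores go with that feature rather than with NMD was not tested. These are single libraries without a test, and the list was chosen with earlier results of these data known.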
